A study of Homo sapiens with 6 samples.

Results

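The kinesin family was examined through every row of the deposited table whose gene symbol is KIF followed by a digit, which gave 40 of 19475 symbols. Among them are 11 mitotic kinesins, namely KIF2C, KIF4A, KIF11, KIF14, KIF15, KIF18A, KIF18B, KIF20A, KIF20B, KIF22 and KIF23, and 29 other rows. One of these rows, KIF1BP, encodes a kinesin-binding protein and not a motor. In the cells given TNFα and LED light, 7 of the 11 mitotic kinesins fell, by 2.01-fold to 3.07-fold against cells given TNFα alone. Over all genes tested 2.73% were called lower, and with 1 library left out the count of mitotic kinesins ranged from 1 to 10. The transport kinesins that were abundant in these cells did not pass the test. The cells were MH7A, an immortalised line of synovial fibroblasts from a patient with rheumatoid arthritis. All 6 RNA sequencing libraries came from cells treated with 10 ng/ml TNFα, a cytokine of the inflamed joint. Of these, 3 (replicates 4, 6 and 10) were also exposed to LED light of 630 nm wavelength, in 3 sessions of 15 min each, and 3 (replicates 2, 8 and 14) received TNFα alone. There was no library without TNFα, with light alone or from sham-exposed cells, and all results come from this line alone.

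Kinesins are motors that hydrolyse ATP to move along microtubules or to take their ends apart. Mitotic kinesins build the spindle, align the chromosomes and complete cytokinesis, and most of them are transcribed mainly in G2 and M phase. Transport kinesins carry vesicles, organelles and mRNAs throughout the cell cycle, and a smaller set serves the primary cilium. In bulk RNA a lower share of dividing cells and a lower amount of RNA in each dividing cell cannot be told apart.

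Deposited totals were between 94615430 and 108074289 estimated counts in the TNFα plus LED libraries and between 86000253 and 107139947 in the TNFα libraries. Low values piled up at multiples of about 4, so the precision is that of about 21500063 to 27018572 fragments per library. Levels are given as CPM, which are estimated counts scaled to a library of 1000000 after TMM normalization. Fibroblast markers were abundant in all libraries, with a summed level of 26000 to 27700 CPM with LED and 30500 to 32500 CPM with TNFα alone. None of the 12 passed the test in edgeR, DESeq2 or limma-voom. At an unadjusted p below 0.05, 1 was lower and 0 higher, where 11.8% of all genes tested were lower and 10.9% higher. Of 8 leukocyte markers 3 passed the filter on low values, and the list summed to 114 to 154 CPM with LED and 92.9 to 138 CPM with TNFα alone, nearly all of it CD68. CD3E of T cells and MS4A1 of B cells were at 0 in every library, and PTPRC was at or near 0. Of 4 endothelial markers 2 passed the filter, and the list summed to 8.34 to 11.1 CPM with LED and 3.96 to 10.3 CPM with TNFα alone. CDH5 was at 0, KDR averaged 8.21 CPM with LED and 6.27 CPM with TNFα alone, and VWF averaged 1.64 CPM with LED and 0.638 CPM with TNFα alone (groups not overlapping, adjusted p = 0.13). None of the 4 epithelial markers passed the filter, with KRT5 and KRT14 at 0 and a summed level of at most 0.0923 CPM. CD68, a lysosomal marker of macrophages that fibroblasts also express, averaged 128 CPM with LED and 116 CPM with TNFα alone. The part of these other markers in the kinesin values was not tested. TNFα replicate 8 stood apart from the other TNFα libraries, and its effect on the kinesin values is given with them. Its chi-square per degree of freedom was 131 and 97.5 against TNFα replicates 2 and 14, which differed from each other by 27. LED replicate 6 also stood apart, at 73.6 and 110 against LED replicates 4 and 10, which differed from each other by 26.8.

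Promoters are shown for 7 members that carry the main contrasts, as RefSeq windows of GRCh38.p14 from 250 bases before to 50 bases after the annotated start, 5′ to 3′ on the gene's strand. Capitals mark matches on either strand to 3 elements of cell cycle promoters. These are the CHR element (TTTGAA or TTCGAA), which the MuvB complex contacts, the CCAAT box bound by NF-Y, and an E2F element (TTTGGCGC, TTTCCCGC, TTTCGCGC or TTTGCCGC). KIF11, KIF14, KIF23 and KIF4A fell and hold both a CHR element and a CCAAT box, KIF18A holds both and did not pass the test, KIF2C fell and holds none of the 3, and KIF24 is a member outside the mitotic group that fell and holds both.
KIF11 (chr10:92592880-92593179, plus strand): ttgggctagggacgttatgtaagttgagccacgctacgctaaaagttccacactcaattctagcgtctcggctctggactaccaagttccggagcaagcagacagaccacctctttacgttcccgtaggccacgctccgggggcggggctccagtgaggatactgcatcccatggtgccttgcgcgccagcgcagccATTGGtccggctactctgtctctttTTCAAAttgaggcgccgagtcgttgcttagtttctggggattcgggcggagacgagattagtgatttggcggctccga
KIF14 (chr1:200620702-200621001, minus strand): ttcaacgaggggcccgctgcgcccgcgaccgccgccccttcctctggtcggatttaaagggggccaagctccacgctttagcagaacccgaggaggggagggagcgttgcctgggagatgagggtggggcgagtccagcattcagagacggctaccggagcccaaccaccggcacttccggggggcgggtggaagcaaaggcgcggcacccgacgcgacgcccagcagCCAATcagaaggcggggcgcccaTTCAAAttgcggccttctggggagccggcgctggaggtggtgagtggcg
KIF23 (chr15:69414099-69414398, plus strand): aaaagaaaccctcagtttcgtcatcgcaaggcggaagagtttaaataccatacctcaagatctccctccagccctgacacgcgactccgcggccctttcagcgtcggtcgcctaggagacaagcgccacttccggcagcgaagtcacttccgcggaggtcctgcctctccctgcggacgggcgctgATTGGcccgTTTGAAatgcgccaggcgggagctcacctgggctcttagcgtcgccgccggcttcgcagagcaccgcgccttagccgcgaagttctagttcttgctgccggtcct
KIF4A (chrX:70289854-70290153, plus strand): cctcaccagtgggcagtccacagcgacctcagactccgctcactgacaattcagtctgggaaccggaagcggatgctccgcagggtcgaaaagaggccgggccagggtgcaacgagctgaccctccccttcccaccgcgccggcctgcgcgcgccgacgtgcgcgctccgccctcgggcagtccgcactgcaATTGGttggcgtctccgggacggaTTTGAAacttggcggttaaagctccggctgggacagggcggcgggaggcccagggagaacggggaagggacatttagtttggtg
KIF18A (chr11:28108107-28108406, minus strand): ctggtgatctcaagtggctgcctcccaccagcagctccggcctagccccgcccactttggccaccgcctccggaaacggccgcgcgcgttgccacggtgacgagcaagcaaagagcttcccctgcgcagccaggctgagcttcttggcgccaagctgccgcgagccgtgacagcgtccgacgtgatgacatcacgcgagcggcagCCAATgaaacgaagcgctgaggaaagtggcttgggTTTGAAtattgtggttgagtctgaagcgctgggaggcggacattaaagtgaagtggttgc
KIF2C (chr1:44739587-44739886, plus strand): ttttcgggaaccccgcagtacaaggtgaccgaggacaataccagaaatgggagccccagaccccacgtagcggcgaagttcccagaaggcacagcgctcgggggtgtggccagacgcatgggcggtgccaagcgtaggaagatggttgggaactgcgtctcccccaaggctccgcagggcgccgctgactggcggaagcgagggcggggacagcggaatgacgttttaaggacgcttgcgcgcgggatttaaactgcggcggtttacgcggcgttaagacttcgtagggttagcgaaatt
KIF24 (chr9:34329219-34329518, minus strand): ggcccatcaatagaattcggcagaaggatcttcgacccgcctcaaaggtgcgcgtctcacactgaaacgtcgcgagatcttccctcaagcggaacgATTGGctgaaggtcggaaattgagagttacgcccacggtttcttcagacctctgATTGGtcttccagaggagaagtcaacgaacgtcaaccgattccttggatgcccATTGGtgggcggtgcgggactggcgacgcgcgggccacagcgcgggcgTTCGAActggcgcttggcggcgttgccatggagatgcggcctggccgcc

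A CHR element was present in 9 of the 11 mitotic kinesin promoters (81.8%), in 3 of the 23 other KIF rows with a window (13%) and in 17.4% of all 14784 genes of the table with a window. A CCAAT box was present in 9 of 11 (81.8%), 9 of 23 (39.1%) and 42.3% of these sets. In the first 200 bases of the windows these shares were 54.5%, 34.8% and 35.7%. Both elements together occurred in 8 of 11 mitotic kinesins (72.7%), in 3 of 23 other rows (KIF24, KIF5B and KIF4B) and in 7.28% of all genes. In KIF11 the CCAAT box began 53 bases before the start and the CHR element 28 bases before it. Spacing from the first base of the nearest CCAAT box to the CHR element was 23 to 25 bases in KIF14, KIF4A and KIF11, 34 to 39 bases in KIF18B, KIF18A and KIF22, 9 bases in KIF23 and 122 bases in KIF20B. KIF15 had a CHR element but no CCAAT box, with its E2F element ending next to the CHR element, and KIF20A had 2 CCAAT boxes and no CHR element. No KIF window held a heat shock element (alternating GAA and TTC blocks), which 0.534% of all genes had. Among tested genes of all kinds, 6.64% of the 708 with both a CHR element and a CCAAT box were called lower with LED, against 2.41% of the 10103 without both. The share was similar for the E2F element, with 6.5% of the 692 genes that held it called lower, against 2.42% of the 10119 without it. These matches describe letters in a fixed window and were not tested as binding sites.

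**Figure D1:**
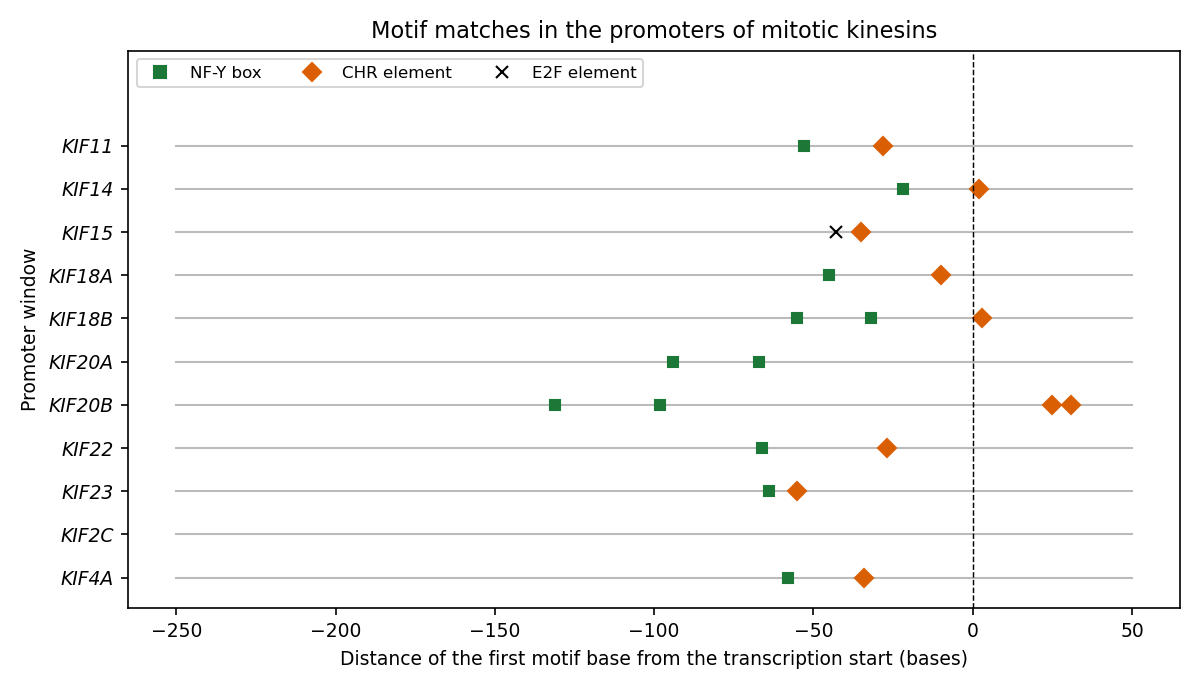
Positions of motif matches in the promoter windows of the 11 mitotic kinesins (for KIF22 the upstream of 2 windows), as distance of the first motif base from the annotated start in bases, with each grey line a window from 250 bases before to 50 bases after it. Green squares are CCAAT boxes bound by NF-Y, orange diamonds CHR elements and crosses E2F elements, and 8 of the 11 windows hold both a square and a diamond.

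The comparison of TNFα plus LED with TNFα alone asks how light exposure of inflamed fibroblasts relates to expression of the motors. Among the mitotic kinesins 7 of 11 fell, none rose and 4 did not pass in edgeR at an adjusted p below 0.05. The background was 2.73% of all 13794 genes tested called lower and 2.44% called higher. DESeq2 called 10 lower and limma-voom 7, against backgrounds of 5.28% and 2.45%, and neither called any of the 11 higher, against backgrounds of 5.46% and 2.33%. At an unadjusted p below 0.05 there were 10 lower and 0 higher, where 11.8% of all genes were lower and 10.9% higher. In 10 of the 11 the LED libraries all lay below the TNFα libraries, which held for 16.2% of all genes tested. The median log2 fold change was -1.19 in the mitotic kinesins, -0.19 in the 21 other KIF rows tested and 0.01 over all genes tested.

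**Figure D2:**
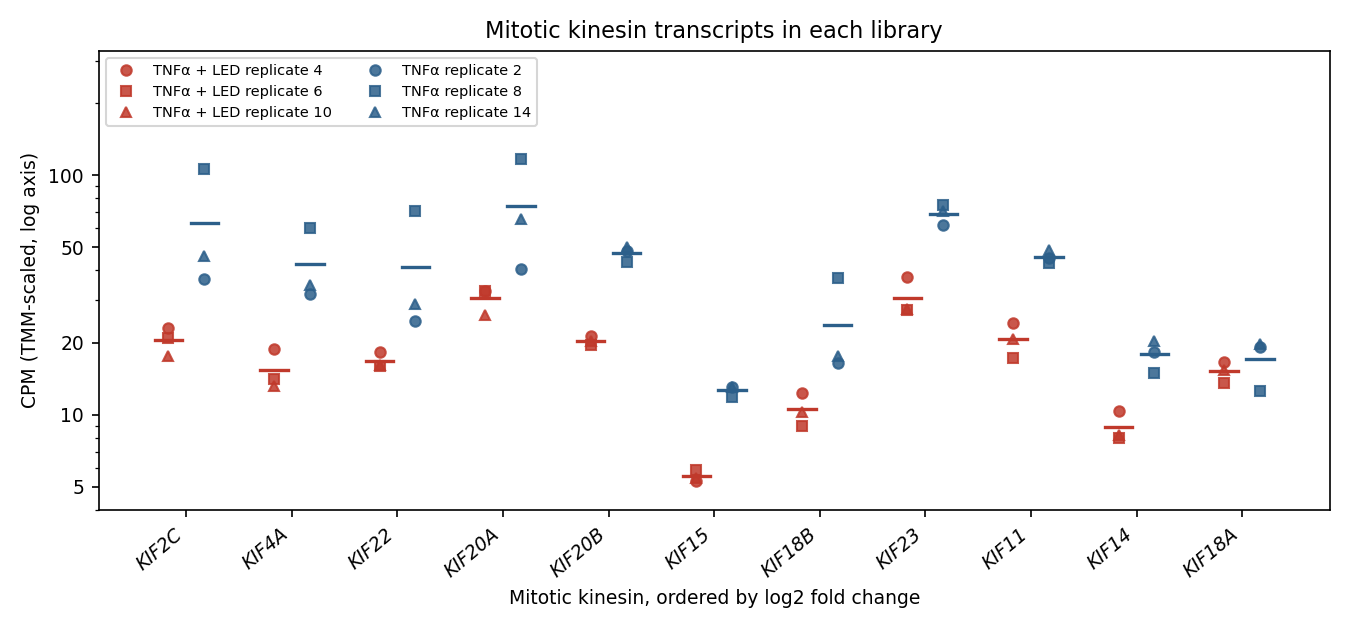
Level of each mitotic kinesin in CPM (log axis) in every library, with TNFα plus LED in red and TNFα in blue, marker shape giving the replicate and short lines the group means (n = 3 each). Red points lie below all blue points for 10 genes, and the groups overlap for KIF18A, while the blue square of TNFα replicate 8 stands far above the other blue points for KIF2C, KIF22, KIF20A, KIF18B and KIF4A.

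Motors that set up the bipolar spindle were lower by a similar factor. KIF11, also known as Eg5, slides antiparallel microtubules apart to separate the spindle poles. It had 24.0, 17.2 and 20.7 CPM in LED replicates 4, 6 and 10, against 45.0, 43.1 and 48.7 CPM in TNFα replicates 2, 8 and 14. It fell 2.21-fold, at -1.14 ± 0.18 on the log2 scale (SE, adjusted p = 0.0137). KIF15, which can keep the spindle bipolar in place of KIF11, had 5.31, 5.89 and 5.43 CPM with LED, against 13.03, 11.8 and 13.05 CPM with TNFα alone. KIF15 fell by 1.19 ± 0.18 in log2 units (adjusted p = 0.0121). The groups did not overlap for either gene.

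Motors of chromosome alignment and attachment gave a mixed picture. KIF2C, or MCAK, takes microtubule ends apart at the kinetochore and corrects wrong attachments. It had 23.0, 20.8 and 17.6 CPM with LED, against 36.9, 106 and 45.8 CPM with TNFα alone, and fell by 1.62 ± 0.36 (adjusted p = 0.0392). TNFα replicate 8 was more than 2 times as high as either other TNFα library, and without it KIF2C stood at -1.02 (adjusted p = 0.0303). KIF22, a chromosome-bound kinesin that pushes the arms away from the poles, had 18.2, 16.0 and 16.1 CPM with LED, against 24.6, 70.9 and 29.1 CPM with TNFα alone, at a log2 fold change of -1.31 ± 0.36 (adjusted p = 0.0701). Its groups did not overlap but it did not pass the test, its value was -0.68 without TNFα replicate 8, and 13% of its exon bases overlap an antisense gene. KIF18B, which limits the length of astral microtubules, had 12.3, 8.97 and 10.3 CPM with LED and 16.4, 37.4 and 17.5 CPM with TNFα alone (-1.18 ± 0.32, adjusted p = 0.0652), and stood at -0.69 without TNFα replicate 8.

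KIF18A, which dampens the movements of chromosomes at the metaphase plate, was the member whose groups overlapped. It had 16.5, 13.6 and 15.3 CPM with LED, against 19.1, 12.5 and 19.8 CPM with TNFα alone. Its log2 fold change was -0.18 ± 0.21 (adjusted p = 0.678), and it was not called in any of 16 alternative settings, with values from -0.36 to -0.06. Relative to the mean of the other 10 mitotic kinesins within each library, KIF18A stood at -0.11, -0.15 and 0.05 on the log2 scale with LED and at -0.66, -1.90 and -0.81 with TNFα alone, a difference of 1.05. This ratio was chosen after the values were seen and is a description with no test. Without TNFα replicate 8 the log2 fold change of KIF18A was -0.36. Its promoter, printed above, holds a CHR element and a CCAAT box, as do those of 5 of the 7 members that fell.

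Motors of the central spindle and cytokinesis made up most of the calls. KIF4A, a chromosome-bound kinesin that works with PRC1 to set the length of the central spindle, had 18.8, 14.1 and 13.2 CPM with LED, against 31.9, 60.3 and 34.9 CPM with TNFα alone. It fell by 1.46 ± 0.27 (adjusted p = 0.024). KIF23, or MKLP1, forms centralspindlin with RACGAP1 and had 37.5, 27.3 and 27.5 CPM with LED, against 61.9, 74.7 and 70.5 CPM with TNFα alone. KIF23 fell by 1.17 ± 0.19 (adjusted p = 0.0157). The groups did not overlap for either gene, and both were highest in TNFα replicate 8.

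KIF20B, needed for the final steps of cytokinesis, had a narrow spread in the LED libraries, with 21.2, 19.6 and 20.2 CPM, against 48.4, 43.2 and 50.01 CPM with TNFα alone. It fell 2.32-fold (-1.21 ± 0.16, adjusted p = 0.00711) and was the only mitotic kinesin called in all 16 alternative settings, including each of the 6 omissions of a library. KIF14, which binds citron kinase at the midbody, fell by 1.01 ± 0.20, with 10.4, 7.98 and 8.27 CPM with LED and 18.3, 14.99 and 20.2 CPM with TNFα alone (adjusted p = 0.0297). KIF20A, or MKLP2, carries the chromosomal passenger complex to the midzone. It had 33.0, 32.8 and 26.1 CPM with LED, against 40.4, 117 and 65.6 CPM with TNFα alone (-1.28 ± 0.34, adjusted p = 0.0613). Its groups did not overlap, but the TNFα libraries spanned a range wider than the gap between groups, and without TNFα replicate 8 its log2 fold change was -0.79.

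The number of calls rested on the libraries kept. Without LED replicate 4, 6 or 10 it was 3, 1 and 2 of 11 (background 0.236%, 0.151% and 0.542% lower), without TNFα replicate 2, 8 or 14 it was 10, 7 and 1 (3.01%, 2.12% and 0.306%), and KIF20B was the gene called in every omission. The median log2 fold change of the mitotic kinesins lay between -1.29 and -1.11 in these omissions. With LED replicate 6 and TNFα replicate 8 both left out, 9 of the 11 were called lower (background 6.54%), along with 3 other KIF rows that included KIF5B at -0.39 (adjusted p = 0.0465), and KIF26B was called higher (background 5.51%). These 2 libraries differed most from the others of their groups. Leaving both out narrows the spread within groups, so these counts are no added support for the calls with all libraries.

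TNFα replicate 8 stood above the other TNFα libraries for some mitotic kinesins, which also had a higher GC content. Against the mean of TNFα replicates 2 and 14 it was higher by 1.39 for KIF22, 1.36 for KIF2C, 1.18 for KIF20A, 1.11 for KIF18B and 0.85 for KIF4A on the log2 scale, and lay between -0.61 and 0.18 for the other 6. The GC content of the longest coding transcript was 46.4% to 58.9% in the first 5 and 34.2% to 42.3% in the other 6. Across the 11 genes the difference followed GC content with Pearson's r = 0.90 and Spearman's rho = 0.94. Across the 32 KIF rows tested r was 0.59, and across 13592 genes with a GC value it was 0.56. Length went the other way (r = -0.66 with the log of exon length over the 11). Genes share 1 library here and are not independent replicates, so these are descriptions, and the cause of the difference was not tested. With a GC trend removed from each library, 8 of 11 mitotic kinesins were called lower (background 4.69%), with KIF18B added, and without TNFα replicate 8 there were 7. Among transport kinesins the same library had the lowest ratio of KIF5B to KIF1C, at -0.82 on the log2 scale against 0.72 and 0.54 in TNFα replicates 2 and 14.

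**Figure D3:**
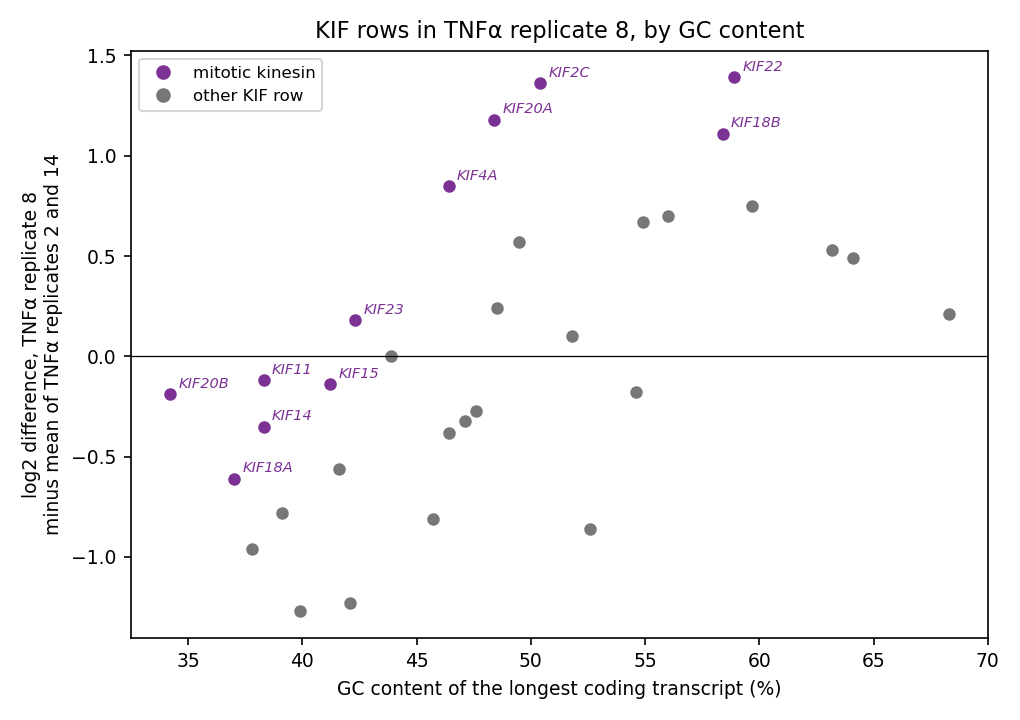
Difference of TNFα replicate 8 from the mean of TNFα replicates 2 and 14 (log2 of CPM plus 0.5) against GC content in percent for the 32 KIF rows tested, with mitotic kinesins in purple and other rows in grey. The 5 mitotic kinesins with a GC content of 46.4% or more lie between 0.85 and 1.39, and the other 6 lie between -0.61 and 0.18.

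Of the 29 other KIF rows 21 passed the filter on low values. Of these 2 fell, none rose and 19 did not pass in edgeR, where 2.73% of all genes were called lower and 2.44% higher. DESeq2 called 3 lower and 1 higher (background 5.28% and 5.46%), and limma-voom 1 lower and 0 higher (2.45% and 2.33%). An unadjusted p below 0.05 gave 3 lower and 1 higher, near the 11.8% lower and 10.9% higher over all genes. The groups did not overlap for 8, with LED below in 5 and above in 3, where 16.2% of all genes lay below and 16.2% above. KIF24, a centriolar kinesin that restrains the assembly of cilia in cycling cells, had 3.20, 2.80 and 3.82 CPM with LED, against 5.51, 9.72 and 7.41 CPM with TNFα alone. It fell by 1.21 ± 0.26 (adjusted p = 0.0364). KIF21B, which makes growing microtubules pause, had 0.980, 0.974 and 1.87 CPM with LED and 2.54, 5.35 and 3.48 CPM with TNFα alone, and fell by 1.57 ± 0.38 (adjusted p = 0.049). Both calls were lost in 5 of the 6 omissions of a library, with adjusted p up to 0.145 and 0.187, and were kept without TNFα replicate 2.

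**Figure D4:**
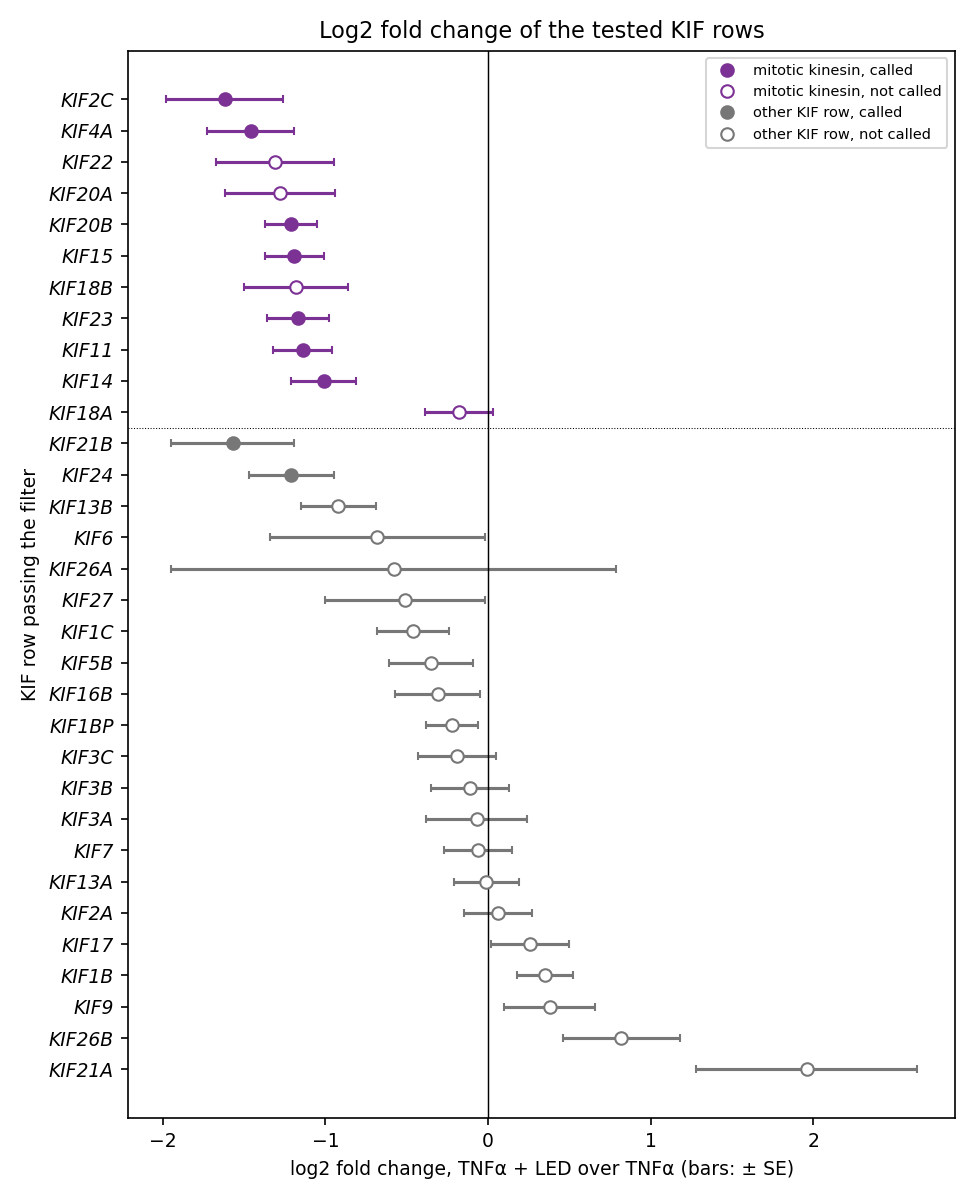
Log2 fold change of TNFα plus LED over TNFα with its standard error for the 32 KIF rows that passed the filter, mitotic kinesins in purple above the dotted line and other rows in grey below it. Filled points are called at an adjusted p below 0.05, and they comprise 7 mitotic kinesins and the 2 rows KIF24 and KIF21B, all below 0.

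The abundant transport kinesins did not pass the test. KIF5B, the ubiquitous heavy chain of kinesin-1, had 269, 184 and 299 CPM with LED, against 367, 217 and 377 CPM with TNFα alone. Its log2 fold change was -0.35 ± 0.26 (adjusted p = 0.465), and its groups overlapped. KIF1C, a kinesin-3 that carries vesicles and mRNAs, had 210, 201 and 219 CPM with LED and 222, 382 and 260 CPM with TNFα alone (-0.46 ± 0.22, adjusted p = 0.25), with the LED libraries all below the TNFα libraries. Without TNFα replicate 8, KIF5B stood at -0.57 and KIF1C at -0.20, and neither passed. KIF1B, a kinesin-3 of mitochondria and vesicles, had 108, 118 and 121 CPM with LED, against 99.8, 77.9 and 95.1 CPM with TNFα alone. It stood at 0.35 ± 0.17 (adjusted p = 0.26), with the LED libraries all above the TNFα libraries. KIF13A, which moves recycling endosomes, averaged 106 ± 18.9 CPM with LED and 107 ± 15.4 CPM with TNFα alone (SD, n = 3 each, log2 fold change -0.01 ± 0.20).

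KIF13B, a related kinesin-3, lay nearest to the threshold without passing. It had 15.2, 8.29 and 12.8 CPM with LED, against 23.9, 21.0 and 23.9 CPM with TNFα alone (-0.92 ± 0.23, adjusted p = 0.0548). It was called in 6 of the 16 alternative settings, with values from -1.11 to -0.71. KIF16B of early endosomes averaged 10.3 ± 1.37 CPM with LED and 12.7 ± 3.98 CPM with TNFα alone (-0.31 ± 0.26).

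The heterotrimeric kinesin-2, which drives transport in cilia, pairs KIF3A with KIF3B or KIF3C. KIF3A averaged 14.7 ± 3.77 CPM with LED and 15.4 ± 5.66 CPM with TNFα alone, at a log2 fold change of -0.07 ± 0.31. KIF3B, its partner, averaged 68.5 ± 20.2 CPM with LED and 73.9 ± 8.08 CPM with TNFα alone (-0.11 ± 0.24). For KIF3C the averages were 21.3 ± 3.55 and 24.4 ± 7.41 CPM (LED, then TNFα alone), at -0.19 ± 0.24. None of the 3 passed, nor did KIFAP3, the adaptor subunit of the same motor (-0.15 ± 0.19, adjusted p = 0.695). KIF7, a regulator of Hedgehog signalling at the tip of the cilium, averaged 25.1 ± 3.95 CPM with LED and 26.1 ± 5.63 CPM with TNFα alone (-0.06 ± 0.21), and 11.8% of its exon bases overlap TICRR on the opposite strand.

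KIF2A, the close relative of KIF2C that also takes microtubule ends apart but is active outside mitosis too, did not pass the test. It averaged 51.6 ± 8.06 CPM with LED and 49.5 ± 10.5 CPM with TNFα alone, at 0.06 ± 0.21 (adjusted p = 0.896). The difference between these relatives was not tested, and 8.97% of its exon bases overlap IPO11. KIF21A, the relative of KIF21B, had 1.49, 5.71 and 2.43 CPM with LED and 1.34, 0.197 and 0.946 CPM with TNFα alone. Its log2 fold change was 1.96 ± 0.68 (adjusted p = 0.127), LED replicate 6 was the highest library and TNFα replicate 8 the lowest, and DESeq2 called it higher (adjusted p = 0.0142). The kinesin-binding protein KIF1BP averaged 51.9 ± 1.40 CPM with LED and 60.5 ± 4.76 CPM with TNFα alone (-0.22 ± 0.16, adjusted p = 0.451), with groups that did not overlap.

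Among the rows that were called, overlap with exons of other genes reached at most 4.8%, in KIF2C. The remaining tested rows, KIF6, KIF9, KIF17, KIF26A, KIF26B and KIF27, had log2 fold changes between -0.68 and 0.82 and adjusted p between 0.221 and 0.842. KIF26A was the lowest row inside the filter, with 17, 12 and 0 estimated counts with LED and 0, 20 and 20 with TNFα alone. The 8 rows outside it were KIF12, KIF19 and KIF2B, at 0 in every library, and KIF1A, KIF4B, KIF5A, KIF5C and KIF25. KIF5A, a neuronal kinesin-1 heavy chain, had 9, 0 and 4 estimated counts with LED and 0, 8 and 21 with TNFα alone. A limit of 3 fragments, or 12 estimated counts, which a count of 0 allows, corresponds to 0.111 to 0.140 CPM. Most values of these rows lay at or below it. Above it were KIF5A in TNFα replicate 14 (0.242 CPM) and KIF4B in LED replicates 6 and 10 (0.199 and 0.166 CPM). KIF4B, an intronless copy of KIF4A, had 10, 20 and 16 estimated counts with LED and 0, 4 and 0 with TNFα alone, and the split of counts between such near-identical copies is uncertain.

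Per kilobase of exon, which allows levels to be compared between genes, transport kinesins led in both groups. KIF5B was the highest row in both, at 42.6 ± 10.2 CPM per kilobase with LED and 54.5 ± 15.3 with TNFα alone (SD, n = 3 each), followed by KIF1C at 26.5 ± 1.18 and 36.4 ± 10.6. KIF20A had 9.56 ± 1.23 CPM per kilobase with LED, below KIF1BP, KIF2A, KIF13A and KIF3B and 23.2 ± 12.2 with TNFα alone, where KIF1BP had 23.1 ± 1.82. With TNFα alone the mean was 19.5 ± 11.6 for KIF2C and 14.9 ± 9.13 for KIF22, against 23.2 ± 12.2 for KIF20A. These genes share the same libraries, so the SDs between libraries do not decide whether their levels differ. The mitotic kinesins made up 26.0%, 27.0% and 21.4% of the summed level per kilobase of all KIF rows in LED replicates 4, 6 and 10, against 32.7%, 49.0% and 35.5% in TNFα replicates 2, 8 and 14. The summed level of the 11 was 220, 184 and 181 CPM with LED and 356, 592 and 415 CPM with TNFα alone. Every LED library lay below every TNFα library in both measures. The summed level of the other rows was 1010, 819 and 1066 CPM with LED and 1121, 1063 and 1174 CPM with TNFα alone, and these overlapped.

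**Figure D5:**
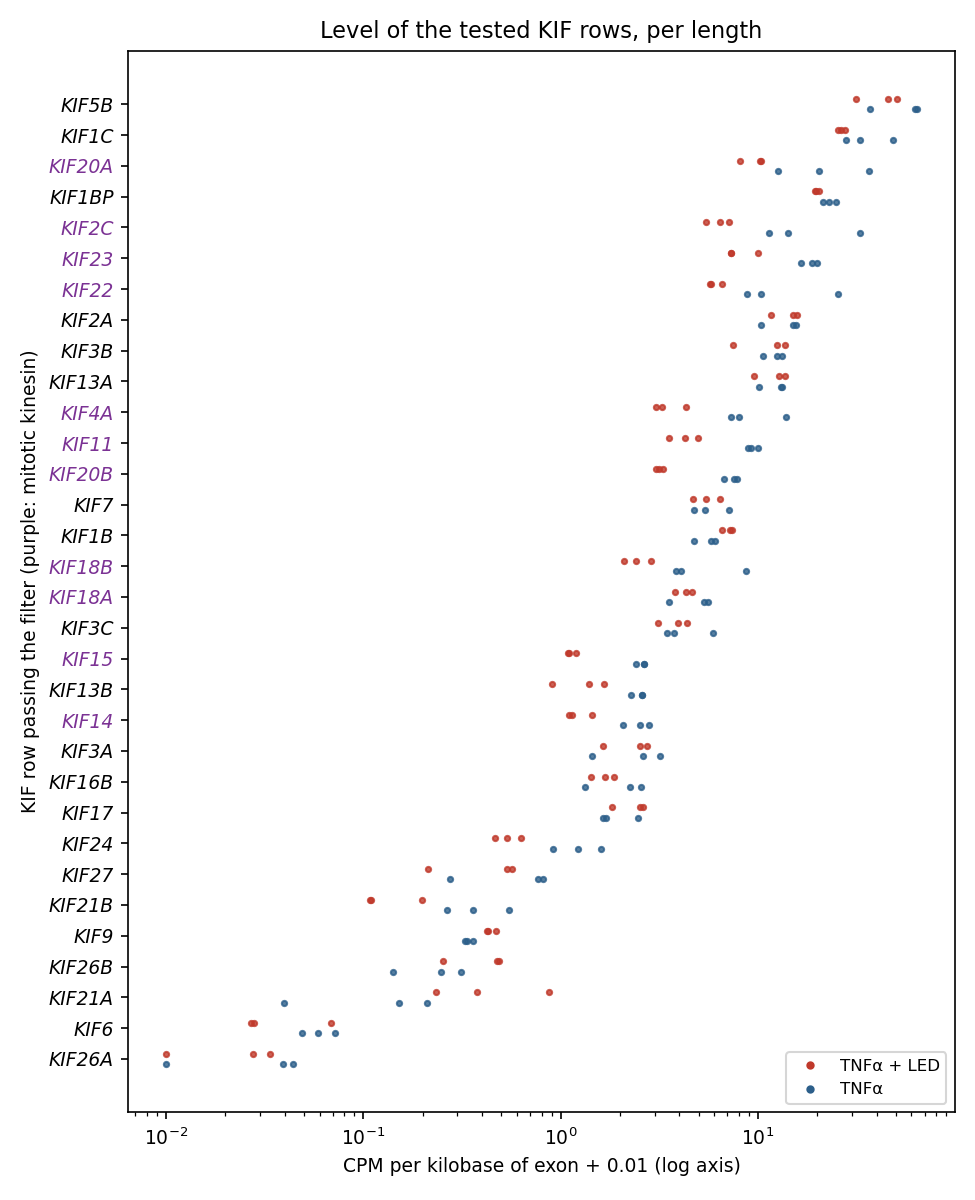
Level of the 32 tested KIF rows per kilobase of exon (CPM per kilobase plus 0.01, log axis), 1 point per library, with TNFα plus LED in red above TNFα in blue for each gene. KIF5B and KIF1C are highest in both groups, and the red points of 10 of the 11 mitotic kinesins, with names in purple, lie left of the blue points, KIF18A being the exception.

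Among 5 kinesins whose symbols do not begin with KIF and a digit, 2 with mitotic roles fell in edgeR, where 2.73% of all genes were called lower. CENPE, the kinetochore motor of kinesin-7, averaged 36.4 ± 4.81 CPM with LED and 71.6 ± 4.62 CPM with TNFα alone and fell by 0.98 ± 0.17 (adjusted p = 0.0202). KIFC1, a minus-end motor that focuses spindle poles, fell by 1.53 ± 0.36 (18.2 ± 2.97 CPM with LED, 52.8 ± 30.8 CPM with TNFα alone, adjusted p = 0.0439). KIFC2, KIFC3 and STARD9 did not pass, at -0.19, -0.17 and 0.08. None of the 5 rose in edgeR, DESeq2 or limma-voom, which called 2.44%, 5.46% and 2.33% of all genes higher. None was higher at an unadjusted p below 0.05, where 10.9% of all genes were. Of the 2 calls limma-voom made 1 (background 2.45% lower), and both were lost without LED replicate 4, 6 or 10 or TNFα replicate 14.

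Partners of the mitotic kinesins, such as kinetochore and midzone proteins, were also lower. Of 20 tested, 11 fell, none rose and 9 did not pass in edgeR, where 2.73% of all genes were called lower and 2.44% higher. Their median log2 fold change was -1.15. DESeq2 called 17 and limma-voom 7, all lower, against backgrounds of 5.28% and 2.45% lower. At an unadjusted p below 0.05, 18 were lower and 0 higher, where 11.8% of all genes were lower and 10.9% higher. NDC80 and NUF2, of the kinetochore complex that grips microtubules, fell by 1.23 ± 0.21 and 1.13 ± 0.19. HMMR, a spindle protein, fell by 1.15 ± 0.20 and SPC24, another subunit of the same kinetochore complex, by 1.97 ± 0.36. The calls in this list numbered 0 without LED replicate 4, 6 or 10 or TNFα replicate 14, and 12 without TNFα replicate 8. Without TNFα replicate 8 the median was -0.85. Among 6 proliferation markers 4 fell in edgeR (background 2.73% lower), with MKI67 at -1.13 ± 0.21 and TOP2A at -0.76 ± 0.16. These calls too numbered 0 without LED replicate 4, 6 or 10 or TNFα replicate 14. The summed level of the list was 330 to 375 CPM with LED and 562 to 802 CPM with TNFα alone. The part of the share of cycling cells in the kinesin values was not tested.

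Regulators that act at the CHR element and the CCAAT box changed in part. Of 14 tested, edgeR called 2 lower and 0 higher, DESeq2 4 lower and 0 higher, and limma-voom 2 lower and 0 higher. Over all genes these methods called 2.73%, 5.28% and 2.45% lower and 2.44%, 5.46% and 2.33% higher. MYBL2, or B-MYB, which joins the MuvB complex to activate G2 and M phase genes, fell by 1.84 ± 0.36 (15.6 ± 1.85 CPM with LED, 55.8 ± 33.3 CPM with TNFα alone, adjusted p = 0.0292). TFDP1, the dimer partner of E2F factors, fell by 0.76 ± 0.18 (adjusted p = 0.0474). FOXM1 averaged 38.1 ± 5.44 CPM with LED and 85.1 ± 43.4 CPM with TNFα alone (-1.16 ± 0.32, adjusted p = 0.0696). LIN54, the subunit that contacts the CHR element, stood at -0.12, and NF-Y subunits NFYA, NFYB and NFYC at 0.24, 0.13 and 0.35. MYBL2 lost its call in 4 omissions of a library, up to an adjusted p of 0.136, and TFDP1 in all 6, up to 0.146. At an unadjusted p below 0.05 there were 5 lower and 0 higher, against 11.8% and 10.9% of all genes.

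Transport adaptors, dynein and tubulins gave few calls in edgeR, as did all genes tested, of which it called 2.73% lower and 2.44% higher. These shares were 5.28% and 5.46% with DESeq2 and 2.45% and 2.33% with limma-voom. Of 22 light chains and adaptors of transport kinesins 2 rose, none fell and 20 did not pass, with a median of -0.17, and DESeq2 called 3 higher and 1 lower and limma-voom 2 higher and 0 lower. At an unadjusted p below 0.05 there were 4 in each direction, against 11.8% lower and 10.9% higher over all genes, shares that also apply to the counts at this threshold for dynein and tubulins. SPAG9, a scaffold that links kinesin-1 and dynein to cargo, rose by 0.78 ± 0.18 (141 ± 11.8 CPM with LED, 82.2 ± 13.5 CPM with TNFα alone, adjusted p = 0.0445). HAP1, an adaptor that binds huntingtin, averaged 1.29 ± 0.318 CPM with LED and 0.299 ± 0.108 CPM with TNFα alone and rose by 2.10 ± 0.47 (adjusted p = 0.0403). The kinesin-1 light chains KLC1 and KLC2 stood at -0.41 ± 0.22 and -0.36 ± 0.22. Among 26 genes of dynein and dynactin 1 rose, none fell and 25 did not pass, while DESeq2 called 2 lower and 1 higher, limma-voom 1 higher, and 3 were lower and 1 higher at an unadjusted p below 0.05. The riser was BICD1, which couples dynein to its cargo, at 36.8 ± 0.716 CPM with LED and 16.6 ± 4.03 CPM with TNFα alone (1.15 ± 0.21, adjusted p = 0.0222). SPAG9, HAP1 and BICD1 lost their calls in 5, 5 and 4 of the 6 omissions of a library, with adjusted p up to 0.144, 0.119 and 0.0962. None of 12 tubulins passed in edgeR or limma-voom, but they leaned lower, with a median log2 fold change of -0.36. DESeq2 called 3 lower, and 5 were lower and 0 higher at an unadjusted p below 0.05. Both counts of lower tubulins lay above the shares over all genes (5.28% and 11.8%). TUBB4B, a beta-tubulin of spindles and cilia, averaged 288 ± 55.7 CPM with LED and 575 ± 216 CPM with TNFα alone (-1.0 ± 0.27, adjusted p = 0.0686), and TUBB6 stood at -0.84 ± 0.24.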

How the data were processed

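Estimated counts, written as whole numbers for each gene symbol, were used as the authors deposited them. Per the submitters' processing notes bcl2fastq 2.0, HISAT2, StringTie, DESeq2 and limma were used, with no roles given. The notes name the mouse build mm10 although the samples and symbols are human, and they name no human build. The sources used here do not give strandedness. Per the labels' protocols, ribosomal RNA was depleted with probes and fragments were primed at random. Each column was matched to a sample by the number in its label.

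TNFα plus LED (n = 3) was compared with TNFα alone (n = 3) in edgeR 4.0.16 under R 4.3.3 (quasi-likelihood, two-sided) after filterByExpr and TMM scaling, with Benjamini-Hochberg adjustment over all genes tested and a threshold of 0.05. The SE is the log2 fold change divided by the square root of F. Alternatives were DESeq2 1.42.0, limma-voom (limma 3.58.1), other scalings and filters, counts divided by 4, and omission of libraries. Removal of a GC or length trend was added after the data were seen. The procedure was tested on simulated counts of 13648 genes. It called 48 of 98 genes changed by 1 log2 unit and 92 of 100 changed by 2, with 7 false calls. A gene that did not pass can therefore still differ. GENCODE release 29 gave exon lengths, GC content and overlaps for all 40 members, and RefSeq gave promoters for 34.

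The members and lists were chosen with earlier results of these data known. Named genes were all mitotic kinesins, other KIF rows that were called or averaged at least 10 CPM, and up to 4 called members of each related list. Any gene named beyond this was picked with its values in view. Nothing in the labels makes the samples separate cultures, and the p-values rest on the spread among these samples, which may be technical. Limits on counts of 0 cover counting error only. No 2 libraries agreed within sampling noise (chi-square per degree of freedom of at least 26.8).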

Additional observations from a re-analysis of the deposited data

How the results depend on the processing

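No paired analysis was possible because the groups share no replicate number. Among the other KIF rows, those called higher numbered 1 with DESeq2 and 1 with LED replicate 6 and TNFα replicate 8 both left out, against 0 in edgeR, and those called lower numbered 1 with limma-voom, against 2. With 1 library left out the mitotic kinesins called lower ranged from 1 to 10, against 7 with all libraries, and the other KIF rows called lower from 0 to 2. The medians of both groups of kinesins and their summed levels moved by less than the spread between replicates in every alternative run. The motif shares stayed within their counting interval, which is wide at 11 genes. The CCAAT share of the mitotic kinesins went from 81.8% to 54.5% in the first 200 bases of the windows and still lay within it. Over all genes the calls numbered 713, against 1646 with DESeq2, 1234 with a GC trend removed, 1669 with those 2 libraries left out, and 80 to 737 with 1 library left out, and the cause was not tested. Among the mitotic partners 11 were called lower, against 17 with DESeq2 and 7 with limma-voom. No tested member that was called in any setting changed its direction. Without TNFα replicate 8 the log2 fold changes moved by over 1.5 times for KIF2C, KIF22, KIF18B and KIF20A, among others, to -1.02, -0.68, -0.69 and -0.79.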
